A study of Mus musculus with 4 samples.

Results

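The Hox genes encode homeodomain transcription factors that give cells their position along the head-to-tail axis of the embryo. They lie in 4 clusters, a to d, and their numbers (paralogue groups) follow their order along each cluster. Low-numbered genes are switched on first and most anteriorly, and high-numbered genes last and most posteriorly. In embryonic stem cells the clusters are textbook targets of the Polycomb repressors, and retinoic acid and the caudal (Cdx) factors are among their known activators. The members described here are the rows of the count table whose symbol is Hox, a cluster letter and a number. Those reported comprise 38 rows with 37 symbols, out of 37310 genes, because *Hoxa3* has 2 rows in the GENCODE vM1 annotation. The a cluster has 11 of the rows, and the b, c and d clusters have 9 each.

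RNA-seq was done on HATX mouse embryonic stem cells (mESCs), a line that carries an *Xist* transgene that doxycycline can induce. The WT group (HATX WT) and the *Spen* KO group (clone 2, with the *Spen* gene deleted) have 2 libraries each, and both groups share the transgene, a mixed genomic background and growth in serum with LIF on gelatin. The labels list no treatment, and the study describes these mESCs as haploid. The KO group is 1 clone, and nothing states that the libraries of a group came from separate cultures, so p-values measure only the spread between these libraries.

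Total counts were between 36667685 and 61908422 per library, with the WT libraries the shallower. *Spen* counts were higher in the KO-labelled libraries (log2 fold change 1.05 ± 0.21, SE; DESeq2 adjusted p = 7.7e-06), so the gene's own count does not check the label, and each direction below rests on it. Of the mESC markers *Pou5f1*, *Nanog*, *Sox2*, *Klf4*, *Zfp42*, *Esrrb*, *Tdgf1* and *Dppa5a*, all 8 were tested, none was called and 2 passed an adjusted p under 0.05, both higher in the KO-labelled libraries. Over all genes tested, 4.51% were called and 32.3% passed an adjusted p under 0.05 (either direction).

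The homeobox codes for the part of the protein that contacts DNA, and its recognition helix, which enters the major groove, is nearly the same in all Hox proteins. The 30 coding bases around this helix are shown for the 6 members with the most reads, because they show how far paralogues differ where they are most alike. Lines are 5′ to 3′ on the coding strand, and capitals mark bases that differ from *Hoxa7*.
Hoxa7: aagatctggttccagaatcggcgcatgaag
Hoxa10: aaAatctggttTcagaatcgCAgGatgaaA
Hoxb9: aaAatctggttTcagaaCcggcgGatgaaA
Hoxb13: aCCatctggttTcagaaCcgCcgGGtCaag
Hoxc13: aCCatctggttccagaatcgAcgcGtgaaA
Hoxd13: aCCatTtggttTcagaatcgAAgGGtgaag

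These stretches lie in coding exons at chr6:52165857-52165886 (*Hoxa7*) and chr6:52182568-52182597 (*Hoxa10*), both on the minus strand of mm9. On the plus strand they lie at chr11:96136108-96136137 (*Hoxb9*), chr11:96057469-96057498 (*Hoxb13*), chr15:102757776-102757805 (*Hoxc13*) and chr2:74508122-74508151 (*Hoxd13*). *Hoxb9* and *Hoxc13* differed from *Hoxa7* at 5 bases each, and *Hoxb13* and *Hoxd13* at 8. Across the other members the range was 0 to 9 of 30 bases, with *Hoxa6* and *Hoxb4* identical to *Hoxa7*. Over a whole read of 75 bases most members had no match in the annotated transcripts of other protein-coding genes. Stretches of that length shared with another gene were found in 8 of 38 rows. In 7 of these the other gene was a neighbour in the same cluster whose annotated transcripts overlap (*Hoxa2* and both *Hoxa3* rows, *Hoxb7* with *Hoxb8*, *Hoxd3* with *Hoxd4*). *Hoxd11* shared 8 stretches with genes outside the clusters. Among members that reached 40 summed counts, *Hoxa2* and *Hoxb7* shared such stretches, and their counts are uncertain for that reason. The search covered protein-coding transcripts only. *Hoxa11* and *Hoxa7* share 38.6% and 20.4% of their exonic bases with other annotated genes on either strand. The strand setting of the counting is not stated, so their counts are uncertain too.

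The Hox clusters were read very sparsely in both lines. All members together gave 421 and 493 counts in WT, and 521 and 622 counts in the deeper KO-labelled libraries. After normalization these sums were 558 and 537 in WT against 454 and 487 in the KO-labelled libraries, a log2 ratio of -0.22. Only 15 of 38 rows reached a summed count of 40 over the 4 libraries (39.5%, against 65.0% of the 22380 protein-coding genes). These were 5 rows of the a cluster, 4 of b, 2 of c and 4 of d. The members nearest to this limit were *Hoxb4* and *Hoxd9*, with 41 and 42 counts, and *Hoxc12*, just outside it with 38. For scale, *Pou5f1* alone had between 30910 and 50741 counts per library.

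Reads were unevenly spread along the clusters. All 4 members of group 13 (*Hoxa13*, *Hoxb13*, *Hoxc13* and *Hoxd13*) reached the limit, with summed counts between 52 and 248. The same was true of both group 7 members (*Hoxa7* and *Hoxb7*, 178 and 46 counts). In contrast, none of the 10 rows of groups 3, 5 and 6 reached it, and their summed counts ran from 0 to 16. Nor did the 2 rows of group 12, next to group 13, with 8 and 38 counts. Rows of group 3 share 35.8% to 100% of their exonic bases with other genes, so their counts are uncertain. That share is 0% to 15.4% in groups 5 and 6, 20.4% and 26.2% in group 7, and 0% in group 13. Groups 3, 5, 6, 7 and 13 were singled out after their counts were seen.

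Levels of different genes were compared as normalized counts per kilobase of annotated exon. In WT, *Hoxc13*, known for its part in hair and nail formation, had the highest level of the members reported, at 34.5 ± 3.06 (SD, n = 2), and both of its WT libraries were above those of the next gene. *Hoxb9* and *Hoxb13*, at 27.0 ± 3.16 and 25.7 ± 2.79, could not be ordered. Below *Hoxa10* and *Hoxa7*, at 15.1 ± 0.776 and 14.4 ± 2.12, most neighbours in the order overlapped.

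In the KO-labelled libraries *Hoxb9* was at the top, at 31.9 ± 5.12 per kilobase (SD, n = 2), then *Hoxb13* at 24.3 ± 0.812 and *Hoxc13* at 17.8 ± 3.63. *Hoxc13* stood above 49.7% of protein-coding genes in WT, a middling gene on this scale. The comparison includes 4109 protein-coding genes without a single count. *Pou5f1* had a level of 16886 per kilobase in WT.

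Differential expression was then tested with DESeq2 over all genes, with positive log2 fold changes higher in the KO-labelled libraries. An adjusted p was given to 16 members, the 15 above and *Hoxc12*. The thresholds of the study are a 2-fold change with an adjusted p under 0.001, and genes past both are named as called here. There, 0 members were called higher (background 1.36% of 17710 genes) and 0 lower (background 3.15%, and 4.51% in either direction). edgeR's quasi-likelihood test also called 0 higher (background 1.43%) and 0 lower (background 3.52%). With the 2-fold change kept and the adjusted p relaxed to 0.05 in DESeq2, 0 were higher (background 2.09%) and 1 was lower (background 4.81%). At an adjusted p under 0.05 without a fold minimum, 0 members were higher (background 16.4%) and 1 was lower (background 15.8%, and 32.3% in either direction). The lower member was *Hoxd9*. At an unadjusted p under 0.05 the count was 2 in DESeq2, *Hoxd9* and *Hoxc13* (background 39.6%), and 4 in edgeR (background 48.9%). At an adjusted p under 0.05, edgeR had 1 member higher (background 19.4%) and 3 lower (background 21.6%), and DESeq2 with a count filter before the fit had 2 lower (background 17.7%). Among the 4523 tested genes whose mean count lay in the range of the tested members, 0.464% were called higher and 1.99% lower (2.45% in either direction). At an adjusted p under 0.05 alone, 2.5% of them were higher and 6.5% lower (9% in either direction).

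**Figure D1:**
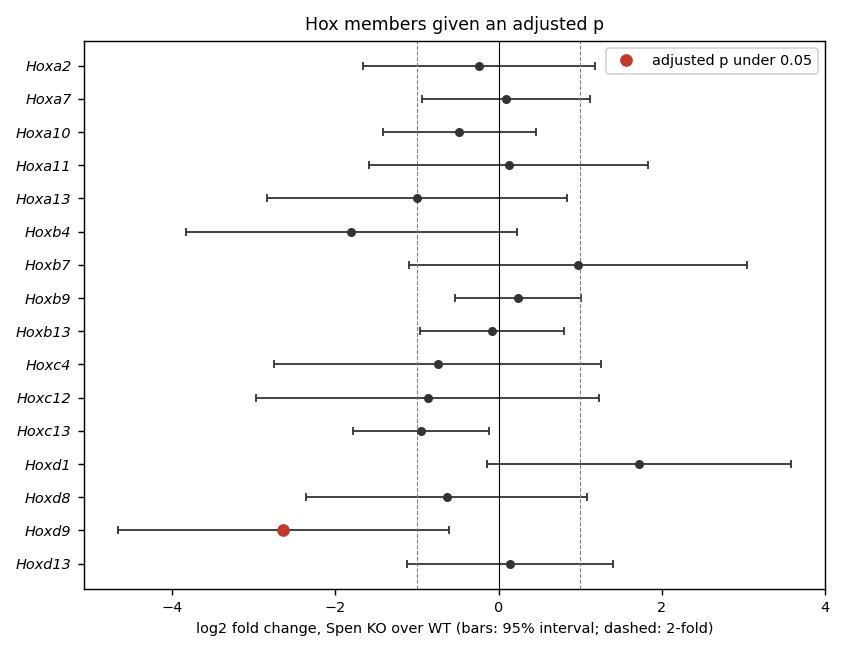
Log2 fold changes (*Spen* KO over WT) of the 16 Hox members given an adjusted p, with 95% intervals; the red point has a DESeq2 adjusted p under 0.05, and dashed lines mark a 2-fold change. The interval of *Hoxd9* runs from -4.67 to -0.61, and that of *Hoxb13* from -0.96 to 0.81.

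At these counts the test can see only large differences. Standard errors of the log2 fold changes ran from 0.39 to 1.08 among the 16 members (median 0.88), against a median of 0.17 over all genes tested. The 95% interval of 15 members included a 2-fold change in at least 1 direction. The exception was *Hoxb13*, whose interval lay within 2-fold on both sides. The median log2 fold change of the 16 was -0.36, with 6 above and 10 below 0. Over all genes tested the median was 0.0049, and 49.5% were below 0. Groups did not overlap in 8 of the 16 members, where 70.2% of all genes tested had groups that did not overlap.

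The reported members of the a cluster (chromosome 6, 52112350 to 52210874) summed to 168 and 187 normalized counts in WT and to 147 and 153 in the KO-labelled libraries, a log2 ratio of -0.25, and the groups did not overlap. No single member dominated: *Hoxa10*, with the most, gave 29.7% of the counts. Without it the log2 ratio was -0.15.

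*Hoxa10*, which patterns the lower trunk and the uterus, had 55.7 and 59.9 normalized counts in WT, against 47.0 and 36.0 in the KO-labelled libraries. The groups did not overlap, and the log2 fold change of -0.48 ± 0.48 (SE) was as large as its error (DESeq2 adjusted p = 0.506). *Hoxa7* had 37.1 and 45.7 in WT and 35.7 and 52.4 in the KO-labelled libraries, with the WT values inside the KO range and a log2 fold change of 0.09 ± 0.52. *Hoxa2*, a gene of the hindbrain and pharyngeal arches, ranged from 14.1 to 29.4 over the 4 libraries, at -0.24 ± 0.73. *Hoxa11* and *Hoxa13*, which act in limb and genital development, had log2 fold changes of 0.12 ± 0.87 and -1.0 ± 0.94. The counts of *Hoxa13* were 12 and 18 in WT, against 6 and 16 in the KO group.

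The other 6 rows of the a cluster hardly gave reads. *Hoxa4*, *Hoxa5*, *Hoxa6* and *Hoxa9* had between 0 and 14 counts in a library. *Hoxa9* had 0 and 11 counts in WT and 6 and 14 in the KO-labelled libraries, which overlapped. *Hoxa5*, a gene of the lung and the neck, had 8 and 6 counts in WT and 2 and 0 in the KO-labelled libraries. *Hoxa3* had 1 to 4 counts in its longer row. Its other row was at 0 throughout, but all of its exonic bases are also exonic in other genes, so that this 0 does not measure the transcript.

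In the b cluster (chromosome 11, 96055630 to 96217003) both lines gave nearly the same total. The members summed to 160 and 158 normalized counts in WT and to 165 and 160 in the KO-labelled libraries. *Hoxb9* and *Hoxb13* made up most of it. *Hoxb9*, which patterns the rib cage, had 63.6 and 75.1 normalized counts in WT against 91.4 and 72.8 in the KO-labelled libraries. The ranges overlapped, and the log2 fold change was 0.24 ± 0.39 (SE; DESeq2 adjusted p = 0.714). *Hoxb13*, the most posterior gene of the cluster and known from the tail and the prostate, had 61.0 and 52.3 in WT and 52.2 and 54.8 in the KO-labelled libraries, at -0.08 ± 0.45.

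*Hoxb4*, known as a gene of blood stem cells, had raw counts of 11 and 18 in WT, against 4 and 8 in the KO-labelled libraries. Both KO-labelled values were lower, and the log2 fold change of -1.81 ± 1.04 (SE) had an adjusted p of 0.186 in DESeq2 and 0.0293 in edgeR. *Hoxb7* went the other way in its counts, with 4 and 8 in WT and 12 and 22 in the KO-labelled libraries, and its log2 fold change of 0.97 ± 1.05 did not pass in either test. *Hoxb2*, *Hoxb3*, *Hoxb5*, *Hoxb6* and *Hoxb8* had at most 6 counts in any library.

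**Figure D2:**
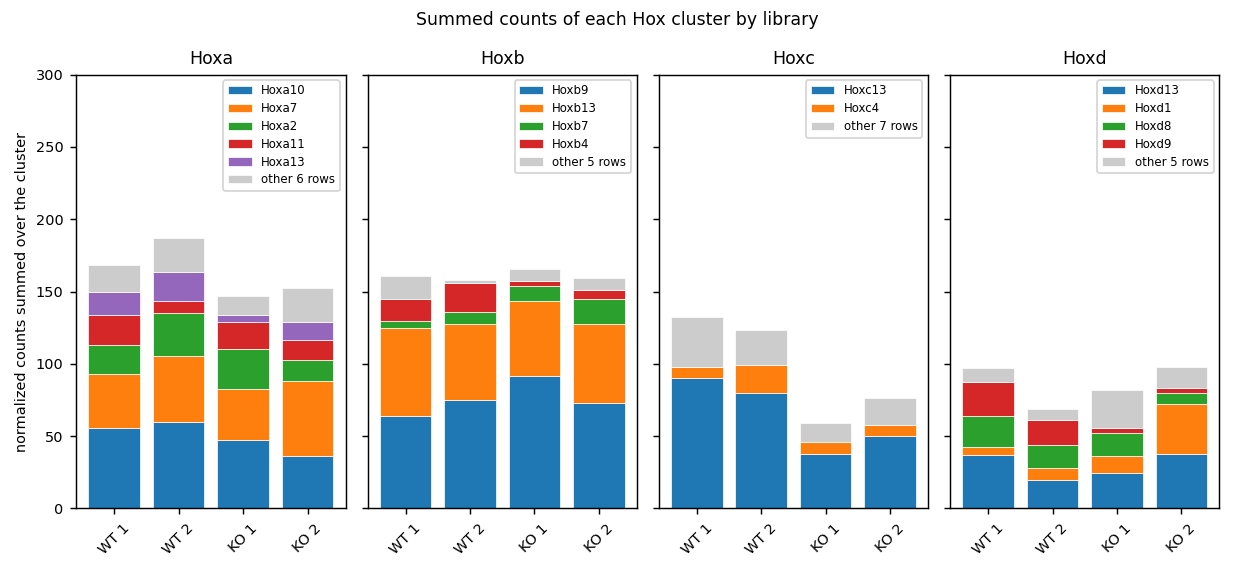
Normalized counts summed over the members of each cluster in the 4 libraries (linear axis from 0), with members of 40 or more summed counts coloured and the others in grey. The c cluster drops from 133 and 123 in WT to 59.2 and 76.7 in the KO-labelled libraries, while the b cluster stays between 158 and 165.

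The c cluster (chromosome 15, 102751534 to 102867274) had the largest difference between the lines. Its members summed to 133 and 123 normalized counts in WT and to 59.2 and 76.7 in the KO-labelled libraries, a log2 ratio of -0.91, and *Hoxc13* gave 65.4% of its counts. *Hoxc13* (102751534 to 102759245) had 90.2 and 79.5 normalized counts in WT against 37.4 and 50.1 in the KO-labelled libraries. The groups were well apart, and the log2 fold change was -0.95 ± 0.43 (SE, 95% interval -1.79 to -0.11). The DESeq2 adjusted p was 0.0747, and it was 0.0141 in edgeR and 0.0440 with a count filter before the DESeq2 fit, so whether *Hoxc13* counts as lower depends on the method. Over all settings it ran from 0.0141 to 0.419. Without *Hoxc13* the log2 ratio of the cluster was -0.83.

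*Hoxc12*, the neighbour of *Hoxc13*, had 10 and 11 counts in WT and 5 and 12 in the KO-labelled libraries, at -0.87 ± 1.08. *Hoxc4*, at the other end of the cluster, had 6 and 18 in WT and 10 in each KO-labelled library, at -0.75 ± 1.02. The difference between its WT libraries was larger than that between the groups. *Hoxc10* had 12 and 1 counts in WT and 6 and 5 in the KO-labelled libraries. *Hoxc5*, *Hoxc6*, *Hoxc8* and *Hoxc11* had at most 4 counts in a library. *Hoxc9* had 0 in all 4, which allows up to 3 counts in each, or more if both reads of a pair were counted.

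The d cluster (chromosome 2, 74506367 to 74603200) had members with fold changes of either sign. The sums were 96.8 and 68.6 normalized counts in WT and 81.8 and 97.8 in the KO-labelled libraries, so the groups overlapped. *Hoxd13*, a gene of the digits, had 37.1 and 19.6 in WT and 24.4 and 37.6 in the KO-labelled libraries, with a log2 fold change of 0.14 ± 0.65. *Hoxd8* had 16 and 14 counts in WT and 18 and 10 in the KO-labelled libraries, at -0.63 ± 0.88 (-0.21 without KO replicate 2 and -1.21 without KO replicate 1).

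*Hoxd9* (74535737 to 74538265), a gene of the proximal forelimb, fell from 18 and 16 counts in WT to 4 in each KO-labelled library. These are 23.9 and 17.4 normalized counts against 3.48 and 3.13. Hox counts above 0 were even in 91 of 120 cases, and whether both reads of a pair were counted is not stated, so these may be fewer fragments. Its log2 fold change was -2.64 ± 1.03 (SE, 95% interval -4.67 to -0.61), with a DESeq2 adjusted p of 0.0355. In the 6 other settings that gave it an adjusted p, this ran from 0.0045 in edgeR to 0.0507 without independent filtering, where it no longer passed 0.05. In the DESeq2 fit with the replicate number as a block, *Hoxd9* received no adjusted p (unadjusted p = 0.0356), at a log2 fold change of -2.63. It received none either when any single library was left out, where the log2 fold change ran from -2.85 to -2.39.

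*Hoxd1*, at the anterior end, had 4 and 8 counts in WT and 14 and 44 in the KO-labelled libraries. Both KO-labelled values were higher, and they lay far apart, at 12.2 and 34.4 normalized counts against 5.30 and 8.71 in WT. The log2 fold change was 1.73 ± 0.95 (SE), with an adjusted p of 0.165 in DESeq2 and 0.0494 in edgeR. It was 0.80 without KO replicate 2 and 2.30 without KO replicate 1, so its size rested largely on KO replicate 2. *Hoxd10*, *Hoxd11* and *Hoxd12* had 0 to 4 counts in the WT libraries and 4 to 15 in the KO-labelled ones. *Hoxd11* had 0 and 2 against 15 and 9 counts (DESeq2 unadjusted p = 0.068, with no adjusted p). *Hoxd12* had 0 in both WT libraries against 4 in each KO-labelled library. That is near the 3 counts that a 0 allows, and a 0 allows more if both reads of a pair were counted. *Hoxd3* and *Hoxd4* had at most 4 counts, and their annotated exons overlap.

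The promoters of *Hoxd9* and *Hoxd1* are shown because the fold changes of these members of 1 cluster had opposite signs, with an adjusted p under 0.05 for both in edgeR only. They are the 250 bases upstream of the annotated start, from RefSeq on GRCm38.p6, 5′ to 3′ on the plus strand, with CG dinucleotides in capitals. The positions are chr2:74697513-74697762 for *Hoxd9* and chr2:74762730-74762979 for *Hoxd1*, on a later build than that of the counts.
Hoxd9: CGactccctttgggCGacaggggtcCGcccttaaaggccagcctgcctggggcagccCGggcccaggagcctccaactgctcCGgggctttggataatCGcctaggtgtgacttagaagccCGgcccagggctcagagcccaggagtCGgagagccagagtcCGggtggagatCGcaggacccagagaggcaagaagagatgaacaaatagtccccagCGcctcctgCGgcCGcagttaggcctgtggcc
Hoxd1: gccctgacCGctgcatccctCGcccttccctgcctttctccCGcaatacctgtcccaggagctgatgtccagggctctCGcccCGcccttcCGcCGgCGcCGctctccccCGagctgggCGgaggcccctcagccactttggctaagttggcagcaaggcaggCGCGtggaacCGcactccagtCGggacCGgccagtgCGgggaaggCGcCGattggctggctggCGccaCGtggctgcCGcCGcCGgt

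The *Hoxd9* sequence holds 13 CG dinucleotides and that of *Hoxd1* 24. RefSeq windows of 300 bases (250 before to 50 after the start) were matched for 21 of the 37 symbols, in 23 windows. They held a median of 15 CG dinucleotides (range 4 to 45), against 7 over all 32850 windows. The retinoic acid receptor core motif AGGTCA, on either strand, was in 7 of 23 windows (30.4%, against 16.3% of all windows), and the caudal motif TTTATG in 5 (21.7%, against 11.9%). These matches describe letters only.

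**Figure D3:**
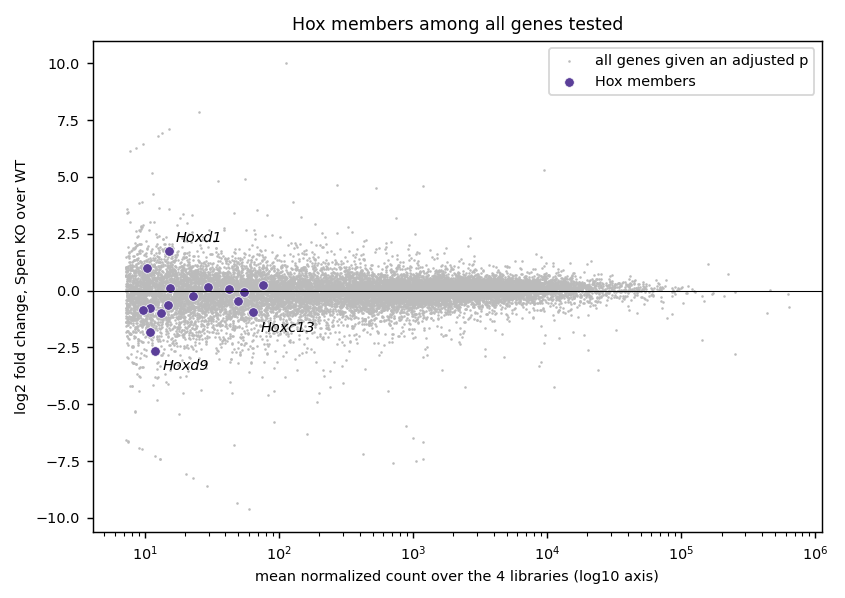
Log2 fold change (*Spen* KO over WT) against mean normalized count (log10 axis) for the 17710 genes given an adjusted p, with Hox members in purple. Members sit between 9.75 and 75.7 mean normalized counts, where fold changes of all genes scatter widely, and *Hoxd9* is at the lower edge of the Hox points at -2.64.

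Other genes annotated inside the clusters were also sparse. Of 27 such genes, 24 stayed under 40 summed counts, and 11 had none. The microRNA rows of *Mir10a*, *Mir10b*, *Mir196a-1*, *Mir196a-2*, *Mir196b* and *Mir615* were all at 0; libraries of this kind are not made to capture mature microRNAs. The exception was *Gm53*, which lies between *Hoxb13* and *Hoxb9* (chromosome 11, from 96112419). It had 416 and 479 normalized counts in WT and 738 and 599 in the KO-labelled libraries, more than all Hox members of its cluster together in each library. It rose by 0.58 ± 0.17 (SE) on the log2 scale (DESeq2 adjusted p = 0.00341). *Gm11538* and *Gm11539*, the other genes above the limit, had log2 fold changes of 0.19 and -0.62 and did not pass.

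Genes beside the clusters were read next. Of the 24 protein-coding genes that flank them, 3 on each side, 22 were tested, and their normalized counts summed to between 168615 and 176534 per library, although *Skap1*, *Evx2* and *Gm17649* had only 36, 1 and 1 summed counts. Called genes were 0 higher and 1 lower, and at an adjusted p under 0.05 the counts were 6 higher and 2 lower. The background shares at that threshold were 16.4% and 15.8%, and those of called genes 1.36% and 3.15%. The called gene was *Evx1*, an even-skipped homeobox gene of the posterior primitive streak that stands 52618 bases beyond the *Hoxa13* end of the a cluster. It fell from 101 and 106 normalized counts in WT to 22.6 and 15.7 in the KO-labelled libraries, a log2 fold change of -2.44 ± 0.46 (SE; DESeq2 adjusted p = 1.65e-06). *5730457N03Rik*, a noncoding gene that overlaps *Evx1* on the other strand, fell by 1.94 on the log2 scale (DESeq2 adjusted p = 0.0263). The strand setting of the counting is not stated, so reads of this pair may not be told apart. *Hoxa13*, the cluster member closest to *Evx1*, had 15.9 and 19.6 normalized counts in WT and 5.22 and 12.5 in the KO-labelled libraries (DESeq2 adjusted p = 0.477). *Evx2*, next to *Hoxd13*, had 1 count in all.

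Known regulators and partners of Hox genes were examined in the same fit. Some of them had counts as low as those of the Hox members, such as *Cyp26a1* with 78 and *Cdx2* with 146 summed counts. Of 22 genes of retinoic acid signalling and the caudal family, 21 were tested. Among them 2 were called higher and 0 lower (background 1.36% and 3.15%). At an adjusted p under 0.05 the counts were 4 higher and 6 lower (background 16.4% and 15.8%). The called genes were *Stra6*, a transporter of retinol, and *Crabp2*, which carries retinoic acid to its receptor. They rose by 2.65 ± 0.47 and 1.81 ± 0.20 (SE) on the log2 scale (DESeq2 adjusted p = 3.07e-07 and 1.47e-17). *Cyp26a1*, an enzyme that breaks down retinoic acid, fell from 34.3 ± 5.39 to 8.18 ± 1.71 normalized counts (SD, n = 2). The receptor gene *Rarb* fell from 54.4 ± 0.0645 to 18.7 ± 5.58. Both passed an adjusted p under 0.05 in DESeq2 (0.0225 and 0.0257). The related enzymes *Cyp26b1* and *Cyp26c1* had positive log2 fold changes, 1.33 ± 0.83 and 0.21 ± 0.97 (SE), and did not pass (0.235 and 0.909). Of the other retinoic acid receptor genes, *Rara* rose by 0.82 ± 0.09 and *Rarg* by 0.38 ± 0.07 (SE) on the log2 scale (DESeq2 adjusted p = 1.32e-18 and 6.05e-07). Among the retinoid X receptor genes, their partners on DNA, *Rxra* fell by 0.54 ± 0.10 (SE; DESeq2 adjusted p = 6.42e-07), while *Rxrb* at -0.21 ± 0.09 and *Rxrg* at -0.54 ± 0.53 did not pass (0.0579 and 0.496). *Cdx2* fell from 62.8 ± 8.71 to 17.4 ± 2.48 (0.00357), while *Cdx1* had 533 ± 15.5 and 517 ± 32.1 and did not pass (0.888).

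Of the TALE homeodomain cofactors, which bind DNA together with Hox proteins, all 9 were tested. Called cofactors were 1 higher and 2 lower (background 1.36% and 3.15%). *Meis1* fell by 3.79 ± 0.39 and *Meis2* by 1.41 ± 0.26 (SE) on the log2 scale, and *Meis3* rose by 1.30 ± 0.31. Among 31 Polycomb genes 0 were called at the 2-fold threshold (background 4.51% in either direction). At an adjusted p under 0.05, 10 were higher and 8 lower (background 16.4% and 15.8%). *Ezh2*, the H3K27 methyltransferase, was higher by 0.95 ± 0.07 (SE). In the same list *Cbx8* and *Bmi1*, both subunits of Polycomb repressive complex 1, fell by 1.30 ± 0.42 and 0.92 ± 0.16 (SE) on the log2 scale. Of 19 Trithorax and histone demethylase genes tested, 15 were higher and 0 lower at that threshold, where 16.4% of all genes tested were higher and 15.8% lower, with a median log2 fold change of 0.43; none was called at the 2-fold threshold. *Mll1*, whose protein maintains Hox expression, rose by 0.45 ± 0.09 (SE).

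**Figure D4:**
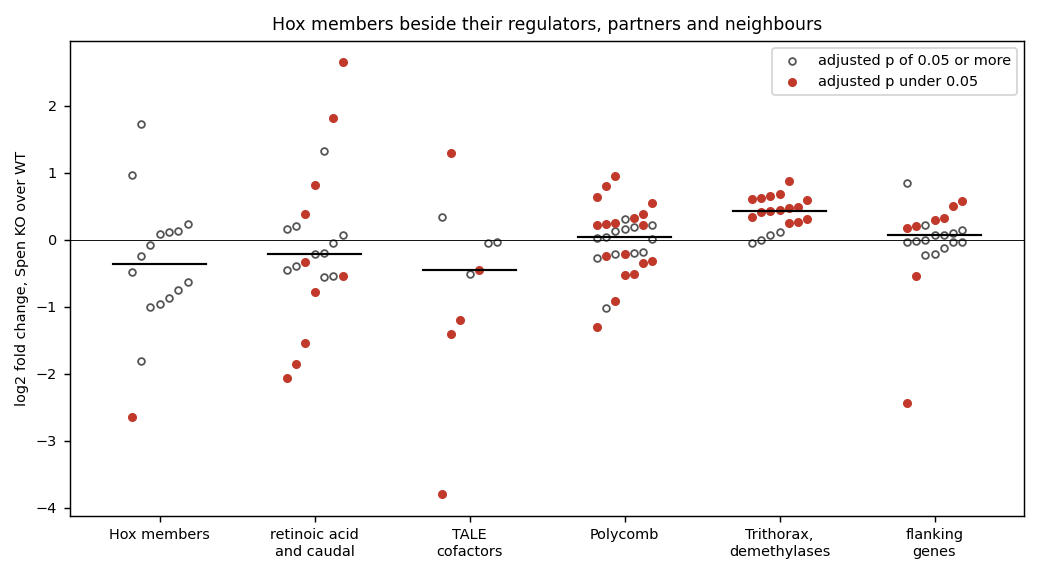
Log2 fold changes (*Spen* KO over WT) of tested genes in 6 groups, with filled red points at a DESeq2 adjusted p under 0.05 and a bar at each median. Of 16 Hox members 1 is red, against 10 of 21 retinoic acid and caudal genes, 5 of 9 TALE cofactors, 18 of 31 Polycomb genes, 15 of 19 Trithorax and demethylase genes and 8 of 22 flanking genes. Of all genes tested 32.3% passed, and of those within the range of Hox counts 9%.

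Whether the share of differing genes depends on the list was not tested. The median log2 fold change was 0.06 on chromosome 6, 0.16 on chromosome 11, 0.07 on chromosome 15 and 0.11 on chromosome 2, beside log2 ratios of -0.25 for the summed a cluster, 0.03 for b, -0.91 for c and 0.12 for d. Fibroblasts, a cell type rich in posterior Hox RNA, were checked by 8 markers. *Dcn*, *Postn*, *Twist2*, *Prrx1*, *Lum* and *Col1a2* stayed under 40 summed counts, although none was at 0 in every library. The summed normalized counts of the list were 162 and 189 in WT and 413 and 477 in the KO-labelled libraries. Most of this was *Thy1*, which rose by 1.59 ± 0.23 (SE). *Col1a1* had 27.8 and 21.8 normalized counts in WT and 49.6 and 47.7 in the KO-labelled libraries, which did not overlap, and its log2 fold change of 0.98 ± 0.56 (SE) did not pass (DESeq2 adjusted p = 0.188). The part of these markers in the Hox values was not tested.

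Differentiated lineages were checked in the same way. The mesoderm list summed to 1149 normalized counts in each WT library and to 465 and 499 in the KO-labelled ones, with *T* lower by 3.74 ± 0.28 and *Eomes* by 0.98 ± 0.16 (SE). These made up most of the sum. The other 4 markers did not pass, and *Mixl1*, *Tbx6* and *Mesp1* had positive log2 fold changes (0.56, 0.31 and 1.33). *Pax6* of the neuroectoderm list fell by 2.33 ± 0.23 and *Sox7* and *Gata4* of the endoderm list by 1.45 ± 0.32 and 1.13 ± 0.31. The endoderm list summed to 386 and 417 in WT and to 193 and 157 in the KO-labelled libraries, and the neuroectoderm list to 9242 and 9155 against 8207 and 8575. *Tubb3* gave most of the neuroectoderm sum, with 7801 and 7817 normalized counts in WT against 7377 and 7717 in the KO-labelled libraries. *Tubb3*, *Nes* and *Sox3* did not pass (DESeq2 adjusted p = 0.670, 0.122 and 0.199). *Gata6* of the endoderm list did not pass either (0.827), and *Sox17* and *Foxa2* received no adjusted p. The sums of these lists were lower in both KO-labelled libraries, as were the summed a and c clusters, and their part in the Hox values was not tested. In bulk RNA, fewer cells of a type and less RNA per cell cannot be told apart.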

How the data were processed

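RNA-seq libraries of WT and *Spen* KO mESCs (2 per group) were stranded, paired (75 bases) and depleted of ribosomal RNA. Per the methods and the labels, the authors mapped reads to mm9 with STAR and counted them per GENCODE vM1 gene with featureCounts; the deposited values are raw counts. Versions, strand setting and the handling of read pairs and multiple matches are not given in the sources used here. All 4 columns matched a sample by name.

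DESeq2 1.42.0 in R 4.3.3 was fitted to all 37310 genes (Wald test with group as the only term, Benjamini-Hochberg adjusted, with the tool's own size factors and independent filter), and only member rows are printed. Alternatives were edgeR 4.0.16, TMM and upper-quartile factors, other filters, a replicate block, chromosome medians removed and each library left out. Scripts were tested on simulated data. Exact permutation of 2 against 2 libraries cannot give a two-sided p under 0.333 and was not used. Exonic lengths, overlaps and coordinates come from GENCODE vM1; intervals are 95% and cover counting error and replicate spread as DESeq2 estimates them.

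The members and lists were chosen with earlier results of these data known. The rule for naming genes was every member, context genes called at a mean of at least 50 (up to 3 per direction and list), *Spen* and genes inside the clusters with 40 or more counts; other named genes were chosen after their values were seen. The list of 21 Trithorax symbols includes 2 newer names absent from this annotation, and *Sox1* is not analysed here. 2 further genes that match the pattern are not reported here and stay out of all member counts and sums.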

Additional observations from a re-analysis of the deposited data

How the results depend on the processing

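No member was called at a 2-fold change with an adjusted p under 0.001 in any setting tried, and 1 was lower when the adjusted p was relaxed to 0.05 (4.81% of all genes tested). At an adjusted p under 0.05, edgeR gave 1 higher and 3 lower members and a count filter before the fit gave 2 lower, against 0 and 1. Over all genes tested in these fits, 19.4% were higher and 21.6% lower in edgeR, and 17.7% lower with the count filter. No independent filtering, the replicate block and leaving out any single library each gave 0 lower. In the last 2 settings the filter itself left 5 to 7 members with an adjusted p, *Hoxd9* not among them. The median log2 fold change was -0.18 in edgeR and -0.077 with the replicate block, and leaving out single libraries gave -0.22 to -0.039. These medians run over different members. The labels do not state whether libraries that carry the same replicate number were paired. Deviations of such libraries from their group means correlated at -0.018 across 13306 genes, which cannot decide it.

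A limit of 10 summed counts was reached by 25 members and a limit of 100 by 6. The ratio of the summed a cluster was -0.15 without *Hoxa10* and -0.32 to -0.17 without single libraries. That of the b cluster, 0.03, was 0.067 with upper-quartile factors, -0.16 without *Hoxb9* and 0.0043 to 0.056 without single libraries. The c cluster ran from -1.11 to -0.74 without single libraries. The d cluster, 0.12, had no stable sign: -0.10 with its 4 members above the limit and -0.11 to 0.39 without single libraries, turning negative without WT replicate 2 or KO replicate 2 (-0.015). Using bases that no other gene overlaps moved the median KO level per kilobase from 8.66 to 9.80. Of 164 fold changes of 15 members in other settings, 10 reversed, all without a single library: *Hoxa2* (0.080 and 0.18, over a range of -0.80 to 0.18), *Hoxa7* (-0.048 and -0.21, range -0.21 to 0.35), *Hoxa11* (-0.39 and -0.073, range -0.39 to 0.90), *Hoxb13* (0.038, range -0.18 to 0.038), *Hoxc4* (0.059, range -1.24 to 0.059) and *Hoxd13* (-0.26 and -0.21, range -0.26 to 0.67). *Hoxa10* ran from -0.68 to -0.29, *Hoxa13* from -1.76 to -0.50, *Hoxb7* from 0.57 to 1.39 and *Hoxb9* from 0.075 to 0.40 without single libraries. The cause was not tested.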

Other observations

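Low counts in the table were even more often than odd. Of counts between 1 and 10, 66.6% were even over all genes and libraries, against 52.6% of counts between 100 and 500. Of the 120 Hox counts above 0, 91 (75.8%) were even. Whether the 2 reads of a pair were counted separately is not stated.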
